A study of Mus musculus and Homo sapiens with 6 samples.

Results

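The replication-dependent histone genes encode the bulk of the histone protein that packages newly copied DNA. They were taken as the protein-coding genes on mouse chromosomes 13, 3 and 11 that carry a current or an older histone cluster name (H2ac, H2bc, H3c and H4c, or Hist1h, Hist2h and Hist3h), together with the linker histone genes H1f1 to H1f6. There were 66 such genes among 21900 protein-coding genes of the RefSeq table, of which 6 encode H1, 18 H2A, 18 H2B, 12 H3 and 12 H4. One of them, listed as H4bc24, has the older name Hist1h2br and was counted as an H2B gene. Chromatin accessibility had been measured by ATAC-seq, a method that uses the Tn5 transposase to cut and tag open DNA, in NMuMG cells. This epithelial line from mouse mammary gland was grown in medium with 10% serum, used at fewer than 10 passages and labelled as time 0 h, with no treatment or genetic change named. There was 1 library each from 25000, 50000, 75000 and 100000 cells, made to tune the protocol. The cell numbers therefore have no replicate error, and no test between them was made. The series' other 2 samples, from the human MDA-MB-231 line, are not used here.

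These genes are unusual in their build. Most have no intron, and their mRNAs end in a stem-loop instead of a poly(A) tail. In dividing cells they are transcribed as DNA replication begins, at nuclear bodies in which the coactivator NPAT and the 3′ processing factors gather. H2A, H2B, H3 and H4 form the nucleosome core, and H1 binds the linker DNA beside it. The core promoters carry a small set of recurring elements: CCAAT boxes, TATA boxes, the octamer ATTTGCAT known from H2B promoters, and in H4 promoters an element containing GGTCCG that the factor HINFP recognises. H1f6, H2ac1 and H2bc1 are members expressed in the male germ line.

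The promoter sequences that the results turn on are shown here first. The RefSeq promoter table (GRCm38.p6, the assembly that mm10 names) gave a transcription start for 61 of the 66 members; it has no entry for H2bc21, H4c14, H3c7, H2bc4 and H3c1. In each sequence, written 5′ to 3′ on the strand named, capitals mark the CCAAT box, the TATAAA element, the octamer ATTTGCAT or the H4 element GGTCCG on either strand, so that ATTGG, for example, is a CCAAT box read the other way. Of the intervals between the starts of an H2A and an H2B gene that point away from each other, 3 are given on the plus strand: one under a peak in every library at chr13:22035644-22035820, one without a peak that is copied elsewhere in the cluster at chr13:21810200-21810366, and the germ line pair at chr13:23934157-23934436, also without a peak.
H2ac12-H2bc12: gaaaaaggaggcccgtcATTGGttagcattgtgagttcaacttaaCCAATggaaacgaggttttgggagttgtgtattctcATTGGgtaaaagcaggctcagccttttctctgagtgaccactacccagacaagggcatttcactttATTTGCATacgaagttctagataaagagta
H2bc23-H2ac23: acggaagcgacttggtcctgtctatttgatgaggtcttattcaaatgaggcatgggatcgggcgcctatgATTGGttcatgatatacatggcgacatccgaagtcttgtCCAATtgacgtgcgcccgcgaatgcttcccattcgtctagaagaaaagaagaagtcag
H2bc1-H2ac1: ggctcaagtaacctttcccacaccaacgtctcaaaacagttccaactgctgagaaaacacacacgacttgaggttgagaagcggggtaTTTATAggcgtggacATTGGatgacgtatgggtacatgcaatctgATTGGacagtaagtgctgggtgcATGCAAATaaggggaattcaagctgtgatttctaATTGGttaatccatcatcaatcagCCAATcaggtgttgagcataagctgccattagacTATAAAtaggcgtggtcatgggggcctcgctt

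The next set gives the 150 bases before the start of single genes, to set covered and uncovered promoters of one type side by side. They are H4c4 (chr13:23581418-23581567, plus strand), with a peak over its start in every library, H4c18 (chr13:21832198-21832347, minus strand), with none, H3c6 (chr13:23562386-23562535, minus strand), the H3 gene whose start peak ranked highest, H1f3 (chr13:23554882-23555031, plus strand), with a peak in every library, and the germ line gene H1f6 (chr13:23695661-23695810, plus strand), with none.
H4c4: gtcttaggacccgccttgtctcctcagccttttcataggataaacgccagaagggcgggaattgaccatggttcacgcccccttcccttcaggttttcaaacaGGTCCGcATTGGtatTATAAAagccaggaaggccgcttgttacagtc
H4c18: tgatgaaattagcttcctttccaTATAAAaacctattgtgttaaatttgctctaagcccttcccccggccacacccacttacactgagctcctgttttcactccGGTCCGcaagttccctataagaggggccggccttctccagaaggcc
H3c6: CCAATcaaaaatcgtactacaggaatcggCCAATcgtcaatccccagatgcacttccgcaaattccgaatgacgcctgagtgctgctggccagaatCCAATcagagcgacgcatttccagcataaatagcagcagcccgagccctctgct
H1f3: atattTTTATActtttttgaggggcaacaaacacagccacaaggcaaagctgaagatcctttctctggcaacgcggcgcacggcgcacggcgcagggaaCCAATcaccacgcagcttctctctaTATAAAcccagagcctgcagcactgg
H1f6: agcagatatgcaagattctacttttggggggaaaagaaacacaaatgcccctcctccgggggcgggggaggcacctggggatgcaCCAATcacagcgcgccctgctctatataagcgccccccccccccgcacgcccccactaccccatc

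Of the 66 genes, 50 had a peak within 1 kb in all 4 libraries, which is 75.8% with an exact Clopper-Pearson 95% interval of 63.6 to 85.5. Over all 21900 protein-coding genes the share was 54.5%. Most histone genes are short, with a median annotated length of 492 bp, and among the 1524 other protein-coding genes under 1 kb long the share was 2.95%. A further 5 members had a peak in some libraries (H3c15, H2ac19, H3c10, H4c17 and H4c9) and 11 in none (H3c14, H2bu2, H2bc23, H2ac23, H4c18, H2ac24, H4bc24, H1f6, H1f1, H2bc1 and H2ac1). Members lie close together and 1 peak can serve several: when each peak was given only to the member nearest its centre, 50% had one in all 4 libraries. The interval treats genes as independent, which neighbours that share a peak are not, and covers counting error only.

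A peak lay over the transcription start itself in all 4 libraries for 40 of the 61 members with a listed start, or 65.6% (52.3 to 77.3), against 40.6% of 17431 other protein-coding genes. For 15 members the start was covered in no library. The number of members with a peak within 1 kb was 52, 55, 52 and 55 in the libraries from 25000, 50000, 75000 and 100000 cells, and the number with a covered start was 42, 44, 45 and 45. Where 4 values follow each other without a label, they stand for these cell numbers in that order. The deposited lists held 38878, 43832, 41509 and 45530 peaks, so the counts of members varied less in proportion than the lists did. The same held for peaks over the starts of other protein-coding genes, which numbered 7365, 7816, 7781 and 7967.

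**Figure D1:**
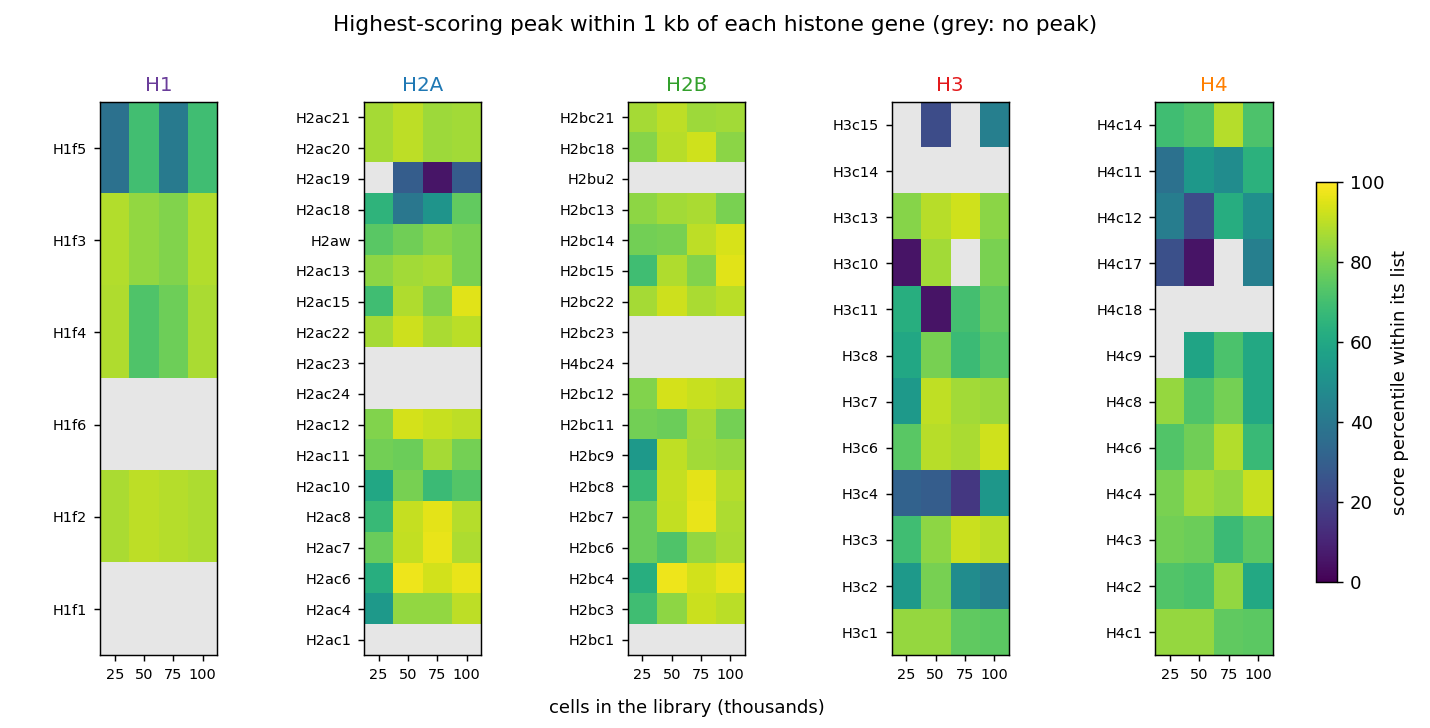
Score percentile of the highest-scoring peak within 1 kb of each of the 66 histone genes (rows, in genome order within each type) in each library (columns, by cell number). The percentile is the rank of a peak among all peaks of its own list, and grey means no peak; grey rows run through all 4 columns for 11 genes, while H2A and H2B rows are mostly at high percentiles and several H3 and H4 rows are lower.

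Each peak carries a score set by the authors' peak caller, which was used only as a rank within its list. A percentile of 90 would mean that the score exceeded those of about 90% of the peaks in that library. Peaks of equal score share their middle rank, so the lowest score, 8, stands at 5.37, 5.26, 5.67 and 5.37. The peaks over member starts had median percentiles of 73.6, 79.0, 80.1 and 75.9, and those over the starts of other protein-coding genes 74.4, 78.4, 76.9 and 79.1. Histone promoters thus ranked at about the level of other open promoters and above the middle of the lists. Peaks over member starts were 650, 700, 650 and 700 bp wide at the median, against 650, 700, 700 and 750 bp over other protein-coding starts and 550 bp over all peaks of each list. The widest member peak was 800, 850, 1100 and 1150 bp, and over other protein-coding starts the widest was 1400, 1500, 1600 and 1700 bp.

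Coverage fell off steeply on both sides of the start. Across the 62 start positions of the members (H2bc6 has more than 1), a peak covered the start in 69.4%, 72.6%, 74.2% and 74.2% of cases, the position 500 bp downstream in 4.84%, 4.84%, 3.23% and 8.06%, and the position 1000 bp downstream in 9.68%, 14.5%, 14.5% and 16.1%. The other protein-coding starts were covered in 40.3%, 43.0%, 42.6% and 44.0% of cases, with 8.59%, 10.8%, 11.1% and 13% at 500 bp and 2.41%, 2.87%, 2.55% and 3.04% at 1000 bp downstream. The rise of the members' curve at 1000 bp lies past the end of most of these short genes.

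**Figure D2:**
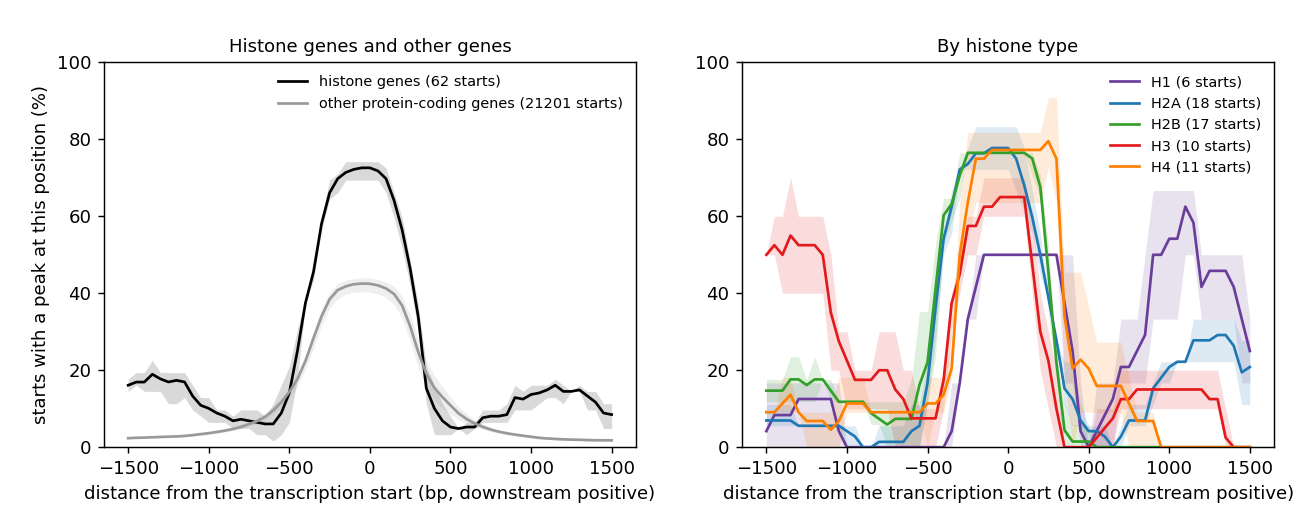
Percent of transcription starts with a peak at each distance from the start (bp, downstream positive), for histone genes against other protein-coding genes (left) and by histone type (right). Lines are means over the 4 libraries and bands span the lowest to the highest library. The histone curve is higher at the start and drops to lower values 500 bp downstream. H1 has a further rise near 1000 bp downstream, and H3 has one upstream, near 1350 bp.

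By position, the genes form 4 clusters. The chromosome 13 genes fall in a distal block at chr13:23531044-23934913 with 31 members and a proximal block at chr13:21715711-22043658 with 23. The chromosome 3 cluster at chr3:96219885-96270192 has 10 and the chromosome 11 cluster at chr11:58948911-58955192 has 2. A peak was present in all 4 libraries for 27 of 31 distal members, 15 of 23 proximal members, 7 of 10 on chromosome 3 and 1 of 2 on chromosome 11. The exact intervals of these shares overlap, running from 70.2% to 96.4% in the distal block and from 42.7% to 83.6% in the proximal one. Within the distal block, 27 of the 29 genes between H4c8 and H1f1 had a peak in all 4 libraries, and the exceptions were H1f6 and H1f1. The remaining distal members are the germ line pair H2bc1 and H2ac1, which lie apart from the others and had no peak in any library.

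Peaks in the distal block concentrated at the histone genes. The sequence within 1 kb of a member made up 25.9% of the block and held 80.6%, 80.0%, 78.6% and 73.8% of its peaks. In the proximal block 17.8% of the sequence held 61.9%, 57.7%, 57.1% and 57.7% of the peaks, and on chromosome 3 34.8% held 77.8%, 64.3%, 61.5% and 78.6%. The distal block also contains 6 other protein-coding genes, of the Slc17 transporter family and Hfe, an iron regulator, and Trim38. Only Slc17a4 among them had a peak within 1 kb in all 4 libraries, at percentiles of 88.0, 91.9, 96.2 and 95.6, and Slc17a3 had none in any. In the proximal block the zinc finger gene Zfp184 had a peak in all 4 libraries, Prss16 in some and Pom121l2 in none.

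**Figure D3:**
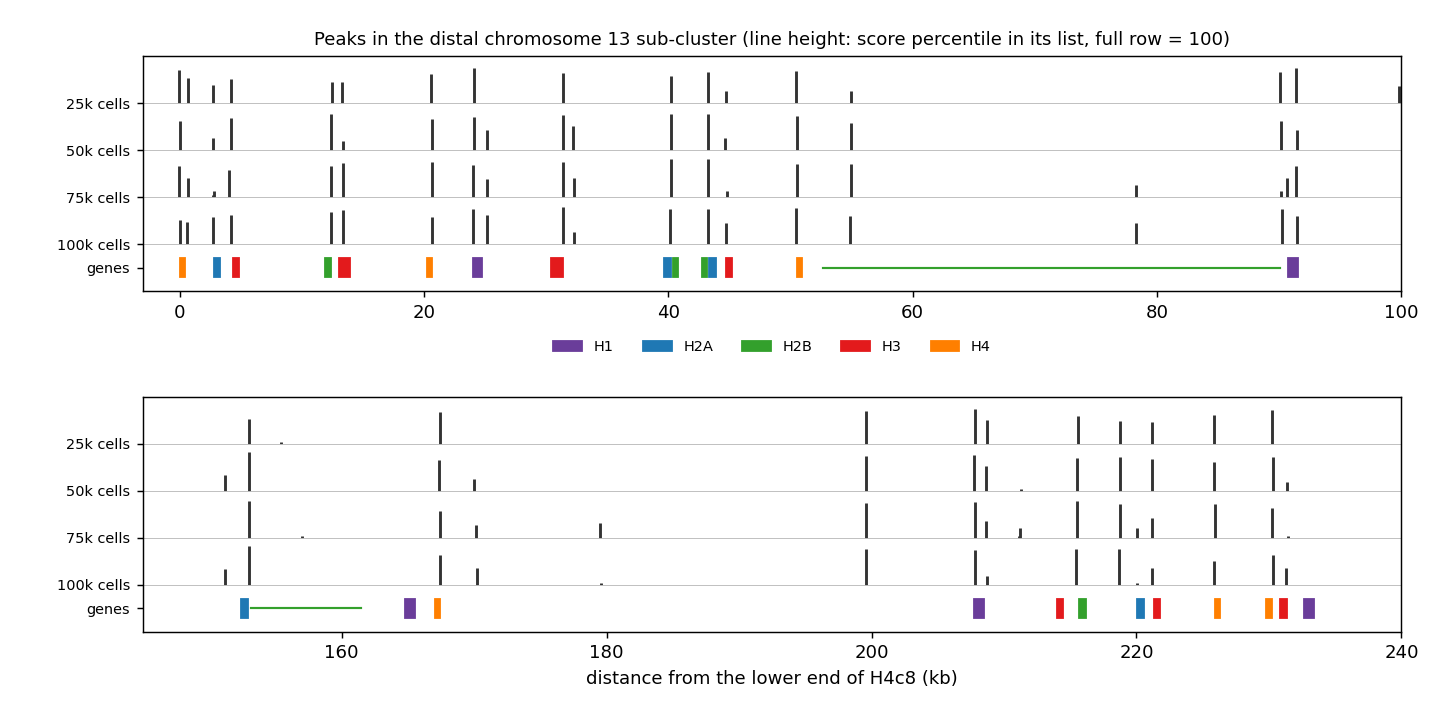
Peaks of the 4 libraries (rows) along the main group of histone genes in the distal block, by distance in kb from the lower end of H4c8; the stretch without histone genes between both panels is not drawn. Each vertical line is a peak at its centre, its height the score percentile in its own list, and coloured blocks below are genes by type (thin lines: H2bc6 and H2bc4, which have long annotated extents); the lines stand at the genes and recur at the same places in the 4 rows.

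The H1 genes split into open and closed members. H1f2, H1f3 and H1f4 had a peak over the start in all 4 libraries, H1f5 had none over its start, and H1f1 and H1f6 had no peak within 1 kb. The H1f2 start peak stood at percentiles of 87.4, 89.9, 89.0 and 87.8, with widths of 750, 700, 650 and 750 bp. This was the most even of the 3 H1 start peaks: the H1f3 peak had percentiles of 88.6, 83.6, 81.1 and 88.3, and that of H1f4 88.0, 50.5, 78 and 70.8. H1f1, a linker histone gene at the far edge of the main distal group, and H1f6, the testis H1, thus differed from the nearby H4c1 and H4c3, whose starts were covered in every library.

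The H1f5 gene, on chromosome 13 between H2bc15 and H3c11, had its peaks past its 3′ end. A peak there, covering no listed start, occurred in all 4 libraries at percentiles of 37.3, 69.8, 41.0 and 69.3. H1f2 had such a peak past its 3′ end in all 4 libraries as well, at 60.0, 62.8, 41.0 and 23, beside the one at its start. Of the 61 members with a listed start, 2 had such a peak past the end in all 4 libraries, 9 in some and 50 in none. Those in some libraries included H1f3 in the libraries from 50000, 75000 and 100000 cells, at 50.5, 44.9 and 72.2, H4c8 in 3 and H2ac6 in 2 libraries. Peaks near members that covered no listed start numbered 11, 17, 14 and 19 and had median percentiles of 37.3, 50.5, 46.7 and 43.2, lower than the values of member start peaks given above.

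H2A and H2B genes had the highest-ranked member peak in the libraries from 50000, 75000 and 100000 cells, and H1f3 had it, at 88.6, in that from 25000 cells. Many of the H2A and H2B peaks were shared by a pair of genes. Among the listed starts, in 10 places an H2A and an H2B gene start close together and are read in opposite directions. The distances were 164 to 281 bp with a median of 204. H2bc4, beside H2ac6, and H2bc21, beside H2ac20, have no listed start, so these neighbours could not be counted as pairs. In each library the peak over the H2ac6 start reached into H2bc4, and that over the H2ac20 start into H2bc21. A single peak spanned both starts in all 4 libraries for 7 of the 10 pairs (70.0%, 34.8 to 93.3) and in none for the other 3. Of 716 pairs of other protein-coding genes with starts up to 500 bp apart, 573 (80.0%, 76.9 to 82.9) were spanned in all 4 libraries. Peaks over the histone pairs were 700, 700, 750 and 750 bp wide at the median and had median percentiles of 78.6, 90.8, 87.2 and 88.8. Peaks over member starts outside such pairs were 650 bp wide at the median in each library, with percentiles of 72.8, 77.4, 75.6 and 74.1. They include the peaks over the starts of H2ac6 and H2ac20 and all those over H1, H3 and H4 starts. Pairing and histone type can therefore not be told apart among the members. The pair medians rest on 7 peaks in each library. Other protein-coding pairs had percentiles of 78.6, 84.3, 82.1 and 84.1, and other single protein-coding starts 74.4, 77.4, 76.9 and 78.1, so a higher rank over pairs was also present outside the histone genes.

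The pair H2ac12 and H2bc12, whose 177-base interval is printed above, had the highest mean percentile of all members. Its peak stood at 80.9, 93.7, 91.5 and 90.2 and was 650, 700, 700 and 900 bp wide. Among the pairs, H2ac22 and H2bc22 followed with 86.6, 92.3, 87.2 and 89.8, and H2bc7 and H2ac7 with 77.2, 90.8, 96.6 and 87.8. In all 3 pairs the 25000-cell library was the lowest, as it was for H2ac8 and H2bc8, at 67.2, 91.2, 95.8 and 88.8. The highest single rank of any member was that of the peak over the start of H2ac6, at 97.5 in the 50000-cell library, with 62.6, 93.3 and 96.5 in those from 25000, 75000 and 100000 cells; the same peak lies within 1 kb of H2bc4.

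Singly placed H2A and H2B genes reached similar values. H2bc3, whose peak was among the widest of the H2B genes, had start widths of 800, 850, 850 and 800 bp and percentiles of 69.2, 82.9, 91.9 and 89.8. H2bc14 had 78.6, 79.5, 90.1 and 94.0. By contrast the start of H2ac10 had low peaks at 46.6, 29.3, 16.2 and 67.7, and that of H2ac4 had none in the 25000- and 50000-cell libraries and 24.5 and 5.37 in the libraries from 75000 and 100000 cells. Higher peaks within 1 kb of both genes did not cover their starts. Over all covered starts of a type in all 4 libraries, each start counted once per library, the median percentile was 86.6 for H2B, 81.0 for H2A and 87.6 for H1, the last from only 3 genes.

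H3 genes had a median start percentile of 53.6 and a median width of 550 bp by the same count, the lowest of the 5 types over the pooled libraries. The start was covered in all 4 libraries for 6 of 10 H3 genes. By library the H3 median was 53.9, 53.4, 58.4 and 63.1, that of H4 was 78.6, 72.6, 75.6 and 60.2, and that of H2B was 77.9, 88.5, 88.7 and 88.3, so H3 was lowest in the libraries from 25000, 50000 and 75000 cells and H4 in that from 100000 cells. H3c6 was higher than the H3 median in each library, at 74.4, 89.1, 87.2 and 92.6 with widths of 750, 750, 650 and 700 bp, so the ranges of H3 and H2B overlapped in each library. H3c8, in the widest H3 region, had 60.0, 79.5, 68.3 and 73.4, with a width of 950 bp in the 75000-cell library. H3c4 had 31.3, 29.3, 16.2 and 52.8, H3c2 53.9, 79.5, 48.5 and 43.2, and H3c11 62.6, 5.26, 70.0 and 75.9. At 50000 cells the H3c11 peak had the lowest score of the list. H3c3 had no peak over its start in any library, and the peak within 1 kb of it, at 69.2, 82.9, 91.9 and 89.8, is that over the start of H2bc3. H3c10 had a start peak in the 25000- and 50000-cell libraries only, at 5.37 and 53.4.

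H4 genes had a median start percentile of 72.8 and width of 650 bp by the same pooled count, and a start covered in all 4 libraries for 7 of 11 genes. H4c4, whose promoter is printed above, had 79.8, 86.3, 83.8 and 91.5. H4c1 had the widest H4 peak, at 800, 850, 900 and 850 bp, with percentiles of 84.0, 84.3, 75.6 and 74.7, and H4c6 had 72.8, 78.4, 88.5 and 67.7. H4c9, on the proximal block, had no peak in the 25000-cell library and 58.5, 71.6 and 60.2 in the others. H4c12 and H4c11 were low: H4c12 had 42.2, 23.1, 62.3 and 49.9, and H4c11 had no start peak at 25000 cells and 53.4, 48.5 and 23 in the others. A peak within 1 kb was present in all 4 libraries for 4 of 6 H1 genes and for 14 of 18 each of H2A and H2B. For H3 and H4 the count was 9 of 12 each. The peak of a neighbour can fill this window, as for H3c3. The start itself was covered in all 4 libraries for 3 of 6 H1, 12 of 18 H2A and 12 of 16 H2B genes. For H3 it was 6 of 10 and for H4 7 of 11, and the exact intervals of all 5 shares overlap.

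On chromosome 3 the cluster has open ends and a weak middle. At one end H2ac20 had a start peak at 86.6, 89.9, 85.3 and 86.1, which also lies within 1 kb of H2bc21 and of H2ac21. H2ac21 had only low start peaks of its own, at 5.37, 44.9 and 23 in the 25000-, 75000- and 100000-cell libraries. At the other end the H2bc18 start had 81.9, 89.1, 92.6 and 82.6 and that of H3c13 15.8, 47.2, 44.9 and 43.2. The peak nearest H4c14 had 69.2, 72.6, 89.0 and 72.2. In the middle, H2ac18 had 65.0, 39.5, 51.7 and 75.9 and H2ac19 none at 25000 cells and 29.3, 5.67 and 29.1 in the others. H3c15 had no peak over its start, with peaks in its window at 23.1 and 43.2 in the 50000- and 100000-cell libraries, and H3c14 had no peak. On chromosome 11 H2aw had a peak in every library, at 74.4, 78.4, 82.1 and 80.0, which was 750, 650, 1100 and 1150 bp wide, and H2bu2 had none.

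Of the 15 members whose start was covered in no library, 8 have promoter sequence that is present more than once. Among the listed promoters, which run from 250 bases before to 50 after the start, 10 members share an exact run of at least 200 bases with another member's promoter: H2ac18 and H2ac19, H3c14 and H3c15, and, on chromosome 13, H2bc23, H2ac23, H4c17, H4c18, H2ac24 and H4bc24. Their starts were covered in all 4 libraries in 1 case (H2ac18), in some libraries in 1 (H2ac19) and in none in 8. Of the 49 members whose longest shared run was under 50 bases, 38 had a start covered in all 4 libraries and 7 in none. The whole 167-base interval between H2bc23 and H2ac23 printed above also occurs in the promoter of H4bc24, and the 300-base promoters of H2bc23 and H4bc24 are identical. A read wholly inside such a run has no unique place in the genome, how reads with several places were treated is not given in the sources used here, and its part in the missing peaks was not tested. Without these 10 members, 49 of 56 (87.5%) had a peak within 1 kb in all 4 libraries.

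**Figure D4:**
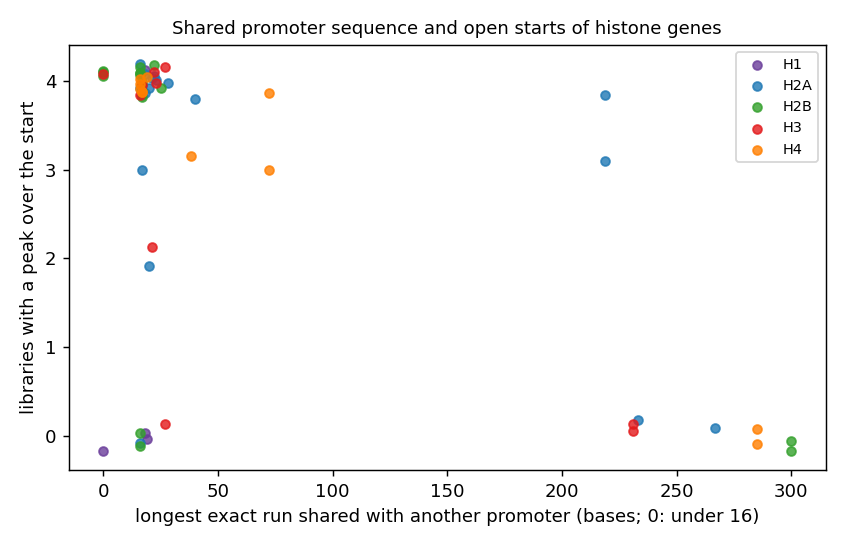
Number of libraries with a peak over the start (y axis, points spread vertically within each number) against the longest exact run of bases that the promoter shares with any other promoter of the table (x axis), for the 61 histone genes with a listed start, coloured by type. Of the 10 points at 200 bases or more, 8 lie at 0 libraries, while most points at short runs lie at 4.

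The 7 members with short shared runs and no start peak were H2bu2, H1f5, H1f6, H3c3, H1f1, H2bc1 and H2ac1. They include all 3 germ line genes. The H2bc1 to H2ac1 interval nevertheless carries 4 CCAAT boxes, 2 TATAAA elements and the octamer, as the sequence above shows. The H2ac12 to H2bc12 interval, under a peak in every library, carries 3 CCAAT boxes, the octamer and no TATAAA. The listed promoters of H2ac12 and H2bc12 reach past this interval, and each holds 1 TATAAA outside it. These are matches of letters in a window and say nothing of whether a factor is bound.

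Motifs were counted on both strands of the first listed promoter of each gene. CCAAT occurred in 53 of 61 members (86.9%), against 39.0% of 17492 protein-coding genes. It was in all 6 H1, 18 H2A, 16 H2B and 10 H3 promoters and in 3 of 11 H4 promoters. TATAAA occurred in 35 (57.4%), against 14.2%, and within 50 bases before the start in 18, against 3.65% of protein-coding promoters; its median position there was 31.5 bases before the start. ATTTGCAT occurred in 7 of 18 H2A and 6 of 16 H2B promoters and in no H1, H3 or H4 promoter, against 1.71% of protein-coding promoters. GGTCCG occurred in 10 of 11 H4 promoters and in 2 of the other members, against 10.6% of protein-coding promoters. The promoters of a divergent pair overlap, so these counts hold some matches more than once.

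Pooled over the histone types, each element occurred in both covered and uncovered members. CCAAT and GGTCCG differ by type, and 8 of the 15 uncovered promoters hold the long shared runs. The counts therefore cannot show whether an element goes with an open start. CCAAT was in 36 of 40 promoters whose start was covered in all 4 libraries and in 13 of 15 covered in none, and TATAAA was in 23 of 40 and 7 of 15. The octamer was in 10 of 40 and 2 of 15, and GGTCCG in 8 of 40 and 2 of 15. H4c4 and H4c18, both printed above, each carry GGTCCG and TATAAA, and the H4c4 start was covered in every library and that of H4c18 in none. They differ in more than this. The TATAAA of H4c4 begins 32 bases before the start, whereas H4c18 has no exact TATAAA within 50 bases of it. The printed H4c18 sequence does hold the similar letters TATAAG there, which an exact match does not count. H4c18 also shares a run of 285 bases with H4c17, and the part of this run in the missing peak was not tested. The GC content of member promoters had a median of 45.3%, against 56.3% over protein-coding promoters, with 44.2% in covered and 49.3% in uncovered members.

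The ranks were lowest in the 25000-cell library more often than in the others. Among the 40 members with a covered start in all 4 libraries, the percentile was lowest there in 21 (52.5%), against 17.5%, 12.5% and 17.5% in the libraries from 50000, 75000 and 100000 cells. Among 7081 other protein-coding genes these shares were 41.5%, 18%, 25.4% and 15.1%. The difference was not tested, since pairs share a peak and each cell number has 1 library. Merged over the libraries, the peaks near members formed 57 regions, of which 41 were found in all 4 libraries, 8 in 3, 5 in 2 and 3 in 1.

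Most genes that work with the replication-dependent histones had peaks in every library. All 14 listed factors of histone gene transcription and mRNA processing had a peak within 1 kb in all 4 libraries, against 54.5% of all protein-coding genes. The highest were Hinfp, the H4 promoter factor, at 99.7, 98.7, 98.9 and 99.1, Npat, the coactivator of the histone locus body, at 98.0, 99.0, 98.6 and 97.4, and E2f1, a cell cycle transcription factor, at 97.6, 97.2, 96.6 and 98.3. Of 14 histone chaperone genes, 12 had one in all 4 libraries, and Nasp and Supt16 had one in 3. The highest were Asf1b at 99.6, 99.6, 99.6 and 99.5, Daxx at 99.2, 99.0, 98.7 and 99.3, and Nap1l4 at 96.4, 98.4, 99.1 and 98.4. Of 11 replication-independent histone genes, whose expression is not tied to DNA replication, 10 had a peak in all 4 libraries, and the linker histone gene H1f10 had none. H2az2, which encodes the variant H2A.Z, stood at 99.1, 97.1, 98.3 and 97.0. H3f3b, which encodes H3.3, stood at 99.0, 97.1, 98.2 and 96.0, and H1f0 at 95.2, 95.2, 93.3 and 95.2. The peaks over the H1f0 start itself were lower, at 77.2, 72.6, 70.0 and 73.4. The listed E2f1 start was covered only in the 50000- and 100000-cell libraries, by low peaks at 5.26 and 23. Its values above thus belong to a peak that does not cover this start. Hinfp and Nap1l4 have no listed start. No member's mean percentile exceeded 89.1. Most of these genes are longer than the members, so their windows give a peak more room. Listed starts were covered in all 4 libraries for 11 of 12 mRNA factors, 11 of 13 chaperones and 8 of 10 replication-independent genes. Over all protein-coding genes other than members that share was 40.6%. Over covered starts, each counted once per library, the median percentile was 79.5 for the members and 84.4 for the replication-independent genes. For the mRNA factors it was 85.2 and for the chaperones 89.7.

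The label of the cells was checked on marker genes by the same count. A peak within 1 kb was present in all 4 libraries for 5 of 6 epithelial markers (all but Epcam) and 3 of 4 fibroblast markers. It was present for none of 3 blood markers and 1 of 2 endothelial markers. Over all protein-coding genes the share was 54.5%. Where a start was listed, it was covered in all 4 libraries for 4 of 5 epithelial, 0 of 2 fibroblast and 0 of 2 blood markers. So few genes cannot settle the label. Accessible chromatin is not expression, and the lists hold no peak with a score under 8, so weaker accessibility would be missed.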

How the data were processed

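ATAC-seq peak lists of 4 NMuMG libraries were used, and the titles of the libraries gave the cell number. The labels' protocols describe lysis with Triton X-100 before Tn5 treatment of the nuclei. The submitters' processing notes name the builds mm10 and hg19, of which mm10 applies to mouse, and the tools Bowtie 0.12.8, Picard 1.107, bedtools 2.17.0, cutadapt and SAMtools. The sources used here do not give their roles, the peak caller's settings, any Tn5 shift or any thinning of reads. The authors deposited, in 1 list per library, a position and a whole-number score for each peak. The basis of the score is not given, and it was used as a percentile (mid-rank) within a list. No read counts were used, so depth is unknown.

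Gene positions and promoter sequences came from RefSeq tables of GRCm38.p6. A peak counted for a gene when it overlapped the gene extended by 1 kb on both sides by at least 1 bp. Clusters were split at gaps of 1 Mb and groups within them at 100 kb, and pairs were divergent listed starts up to 500 bp apart. Shares have exact Clopper-Pearson 95% intervals. Named genes were, in each type, those with the highest mean percentile, the widest peaks, no peak or a peak in some libraries, all genes on chromosomes 3 and 11 and the germ line genes; others were named after their values were seen. The members, lists and rules were chosen with earlier results of these data known, and the limit of 200 shared bases after seeing them. Overlap functions were tested on simulated data. Python 3.11.15, pandas 2.3.3, NumPy 2.4.6, SciPy 1.17.1 and matplotlib 3.10.9 were used.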

Additional observations from a re-analysis of the deposited data

How the results depend on the processing

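The share of members with a peak within 1 kb in all 4 libraries stayed inside its interval under windows of 0, 500 bp and 2 kb (68.2% to 83.3%), with the upper part of each list by median score (65.2%), with equal numbers of highest-scoring peaks (74.2%), with overlapping peaks merged (75.8%) and with current symbols only (77.8%). Giving each peak to its nearest member lowered it to 50%, since a peak then serves 1 gene. Leaving out the members that share at least 200 promoter bases, an alternative chosen after seeing the data, raised it to 87.5%. Leaving out each library gave 75.8% to 78.8%, and 40 to 43 members with a start covered in all that remained. That count was 33 to 40 under the other settings and 39 without the members of shared sequence. The median percentile of member peaks moved beyond its interval only in the upper part of the lists, to 49.9 at 25000 cells and 56.5 at 100000 cells, against 67.2 and 70.0 in the whole lists; ranks are then taken within that part. Counts of members per library ran from 46 to 60 under the settings tried, against 52 to 55 in the main one. Median widths ran from 600 to 700 bp, against 650 bp. Both stayed within their limits, but the limit for counts was wide, so staying inside it says little. No paired analysis was possible because each cell number has 1 library.

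No read counts come with the lists, and the lowest score is 8, so the depth behind a missing peak is unknown. Starts are those of the table, and 5 members have none listed.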
